A study of Mus musculus with 24 samples.

Results

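Differentiation of C2C12 cells in which both Tead1 and Tead4 had been silenced was followed by RNA-seq from day 0 to day 3. C2C12 is an established line of mouse myoblasts, which the labels assign to the C3H strain. The members were chosen by their column of raw counts and are 4 of the 24 libraries of the series, namely siTead1/4 cells at day 0 (replicates 1 and 2) and at day 3 (replicates 1 and 2). Their reference is the same interval in cells transfected with a control siRNA (siControl, labelled siLuc), which has 2 libraries at each day and shares none with the siTead1/4 cells. Cells received a pool of siRNAs, were collected undifferentiated 24 hours later (day 0), and the rest were kept in medium with 2% horse serum until collection at day 3. The silencing was thus transient, both genes were targeted together, and neither was deleted. All groups are the same line, and the 2 libraries of a group are described as biological duplicates without a statement that they came from separate cultures, so p-values measure the spread between these libraries. The libraries held 25453830 to 44161414 counts in siTead1/4 cells and 33317817 to 52784510 counts in siControl cells. Of the 28109 genes in the table, 15303 passed the filter on low counts and were tested.

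Myoblasts that lose growth factors leave the cell cycle, switch on Myog and Mef2c, fuse, and fill with sarcomeres, the repeated units of thick and thin filaments that contract. Tead proteins are DNA-binding factors of the Hippo pathway that act with the coactivators Yap1 and Wwtr1 (Taz) or with Vgll proteins. They recognise the M-CAT element, which was first described in promoters of contractile genes, whereas Myod1 and Myog bind E-boxes. The comparison asks which of the changes of normal differentiation still took place after Tead1/4 silencing. Bulk RNA cannot tell fewer differentiated cells from less RNA per cell, and this holds for every level given here.

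The targeted genes were read first. Levels are CPM, which puts each library's reads on one common TMM-scaled total, and changes are log2 fold changes of day 3 over day 0 from edgeR with their standard error (SE). Tead4 stood at 4.55 and 4.54 CPM at day 0 and 26.6 and 51.2 CPM at day 3 in siTead1/4 cells, against 19.8 and 22.2 at day 0 and 113 and 151 at day 3 with siControl. No siTead1/4 library reached its siControl counterparts at day 0 or at day 3, and silencing lowered Tead4 by 2.21 on the log2 scale at day 0 (adjusted p = 0.036) and by 1.76 at day 3 (adjusted p = 0.0425). Within siTead1/4 cells Tead4 nevertheless rose between the days (log2 fold change 3.10 ± 0.38, adjusted p = 0.000247), and the siControl value was 2.65 ± 0.36. Tead1 stood at 30 and 4.78 CPM at day 0 and 68.1 and 50.8 CPM at day 3, against 74.6 and 118 at day 0 and 97.5 and 155 at day 3 with siControl. The siTead1/4 libraries were below every siControl library on both days and lay far apart from each other at day 0, and the difference from siControl was not past the threshold at day 0 (log2 difference -2.46 ± 0.66, adjusted p = 0.168) or at day 3 (-1.09 ± 0.63, adjusted p = 0.501). Both genes were thus higher in each siTead1/4 library of day 3 than in either of day 0. Tead2, another family member, was at 59.7 and 90.4 CPM at day 0 and 55.3 and 49.9 CPM at day 3 and was not called (adjusted p = 0.0911).

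**Figure D1:**
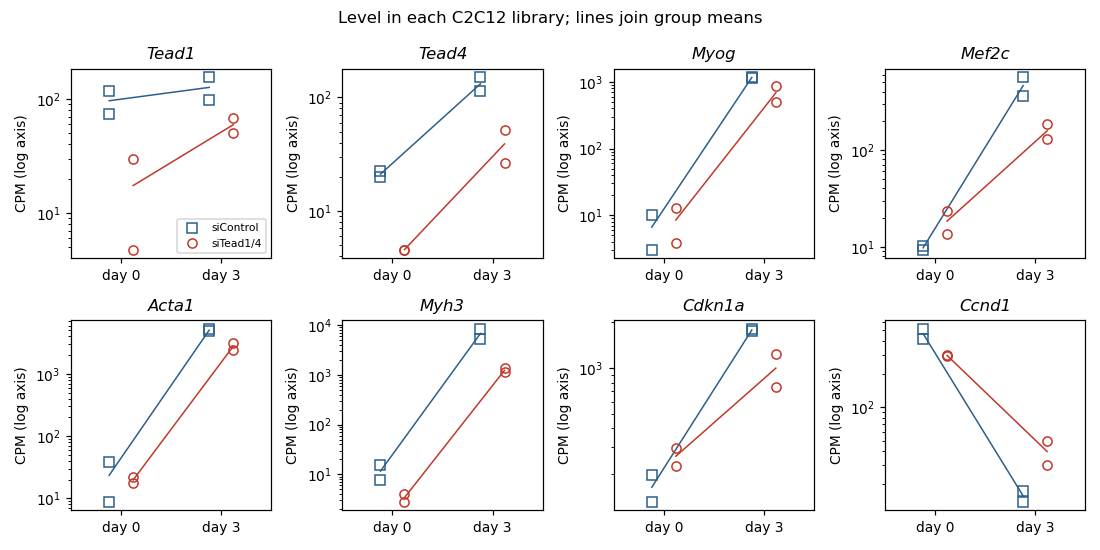
Level (CPM, log axis) of 8 genes in each C2C12 library at day 0 and day 3, with siControl as blue squares, siTead1/4 as red circles and lines that join group means. The red Tead4 points lie below the blue ones on both days, Myog, Acta1 and Myh3 rise in both, and Mef2c, Cdkn1a and Ccnd1 move less in siTead1/4 cells, with no difference of the change past the edgeR threshold.

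Replicates agreed less well in siTead1/4 cells than in siControl cells. The log2 levels of the 2 libraries differed with an SD of 0.736 at day 0 and 0.731 at day 3, against 0.475 and 0.411 with siControl. At day 3, 141 tested genes differed over 4-fold between the siTead1/4 replicates (on log2(CPM + 1)), and 4 did between the siControl replicates. Genes of protein folding and stress in the endoplasmic reticulum set replicate 2 apart. In a list of 30 such genes, written after this had been noticed and therefore not tested as a list, 28 had a CPM at least 2-fold higher in replicate 2 than in replicate 1 of day 3. Hspa5, the chaperone BiP, stood at 1032 and 1514 CPM at day 0 and 1406 and 13645 CPM at day 3, and Ddit3, the stress factor Chop, at 10.8 and 22.5 at day 0 and 28.7 and 308 at day 3. With siControl, Hspa5 was at 1543 and 1313 at day 0 and 1039 and 999 at day 3, so that 1 library was far above the other 7. Of the 30 genes, 20 were called up in siTead1/4 cells, 29 were when replicate 1 of day 3 was left out and 4 when replicate 2 was left out. Replicate 1 of day 3 was in turn higher for matrix genes, with 22 of 48 of them over 2-fold above replicate 2 on log2(CPM + 1), and for Cyr61 and Ctgf, targets of Yap1 and Tead.

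**Figure D2:**
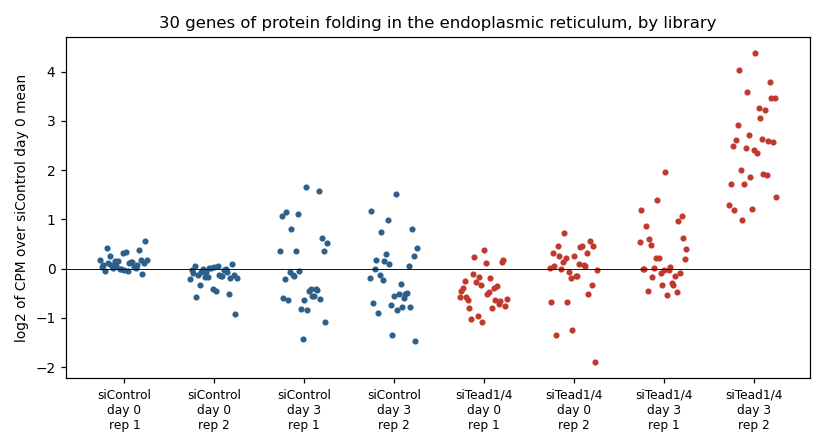
Log2 of CPM over the siControl day 0 mean (y axis) for 30 genes of protein folding and stress in the endoplasmic reticulum in 8 C2C12 libraries (x axis), 1 point per gene, siControl in blue and siTead1/4 in red. Replicate 2 of siTead1/4 at day 3 has a median of 2.53 and no point below 0.99, while the medians of the other 7 libraries lie between -0.47 and 0.12.

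Most of the genes called in siControl cells were also called after silencing. A gene was called when its Benjamini-Hochberg adjusted p was under 0.05 and its log2 fold change beyond 1. Between day 0 and day 3, 2119 genes were called up in siTead1/4 cells (13.8% of those tested) and 1653 down (10.8%). In siControl cells 2450 were called up (16.0%) and 1940 down (12.7%). Of the siControl rises, 1560 were also called up after silencing, which is 63.7% of the siControl list and 73.6% of the siTead1/4 list. Of the siControl falls, 1256 were shared, or 64.7% and 76% of the lists. The direction was shared by far more genes than the call, since 2370 of the 2450 siControl rises and 1883 of the 1940 falls had the same sign in siTead1/4 cells. Leaving out 1 siTead1/4 library at a time lowered the shared part of the siControl rises to between 54.1% and 57.8%, with the lone library of a day assumed to vary like the other groups.

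The siControl changes without a call after silencing were mostly smaller changes in the same direction. Among the 886 such rises, 226 had a log2 fold change over 1 in siTead1/4 cells and missed the p-value, 584 lay between 0 and 1, and 76 were below 0. Among the 680 falls, the same counts were 107, 520 and 53. The median log2 fold change of the siControl rises was 2.39 in siControl cells and 1.81 in siTead1/4 cells, and that of the falls -1.72 and -1.44. These genes were selected on their siControl values, and for the genes selected in siTead1/4 cells the medians were 2.23 with siControl and 2.18 with siTead1/4 for the rises, and -1.71 and -1.88 for the falls.

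**Figure D3:**
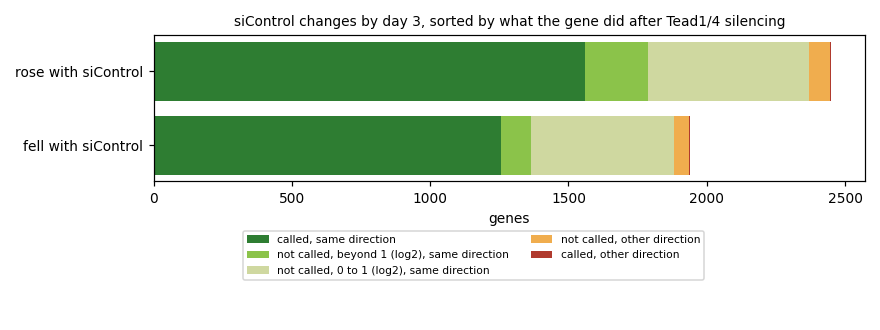
Number of genes (x axis) called up or down by day 3 with siControl (y axis), split by what the same gene did after Tead1/4 silencing. The dark green part is the shared calls, 1560 of 2450 rises and 1256 of 1940 falls, and the genes called in the other direction are 4 in each bar.

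With edgeR, no single gene passed the threshold for a different change in the 2 conditions. The test of the difference itself, the siTead1/4 change minus the siControl change, called 0 of 15303 genes (0%) with edgeR, and the smallest adjusted p was 0.0801. At an unadjusted p under 0.05 there were 1745 genes (11.4%), 836 above and 909 below 0. DESeq2, run as an alternative, called 134 genes above 0 (0.934%) and 194 below 0 (1.35%) among 14341. Without day 3 replicate 1 of siTead1/4, edgeR called 148 genes above and 45 below 0, and without day 0 replicate 1 it called 7 and 18. The median SE of a difference was 0.41 on the log2 scale with these duplicates. Statements that a gene changed less or more are therefore given below as values with their test, and an absent call does not show that the changes were alike.

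**Figure D4:**
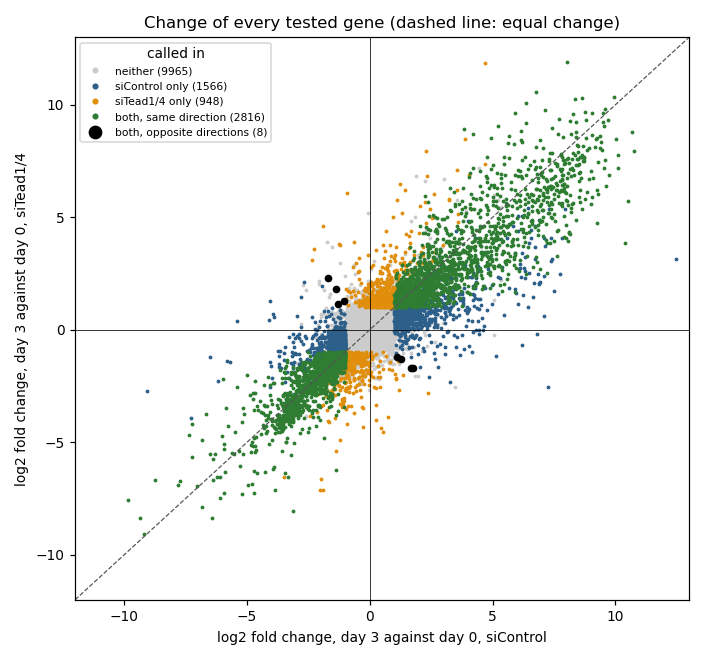
Log2 fold change of day 3 over day 0 with siControl (x axis) and with siTead1/4 (y axis) for each of 15303 tested genes, coloured by where the gene was called; the dashed line marks equal change. Genes called in both in the same direction number 2816, those called with siControl alone 1566, with siTead1/4 alone 948 and in opposite directions 8. Values for genes with almost no counts at one day depend on the prior count of the fit.

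Among the myogenic regulators, 6 of 22 were called up in siTead1/4 cells and 2 down, against 8 and 1 with siControl. Myog, the factor that commits myoblasts to differentiation, stood at 3.89 and 13.1 CPM at day 0 and 500.1 and 871 CPM at day 3. All day 3 libraries were above all day 0 libraries, and Myog rose (log2 fold change 6.35 ± 0.73, adjusted p = 0.000183). With siControl it was at 10.3 and 3.06 at day 0 and 1177 and 1158 at day 3, and the change differed by -1.12 ± 0.83 between conditions (adjusted p = 0.68). Mef2c, the partner that drives contractile genes, was at 23.3 and 13.5 CPM at day 0 and 129 and 186 CPM at day 3 and rose (log2 fold change 3.09 ± 0.39, adjusted p = 0.000315). It started higher and ended lower than with siControl, which gave 9.33 and 10.2 at day 0 and 358 and 564 at day 3. Its log2 fold change was 5.56 with siControl, and the difference of -2.47 ± 0.52 was not past the threshold (adjusted p = 0.119). Smyd1, a muscle methyltransferase needed for sarcomere assembly, rose by 2.60 against 6.08 with siControl (adjusted p of the difference = 0.101). Mef2a also rose in both (2.12 and 2.05). Myod1, which is already present in myoblasts, was at 79.7 and 137 CPM at day 0 and 157 and 147 CPM at day 3 and was not called in either condition. Myf5 and Myf6, the remaining members of the Myod family, were not called either, with log2 fold changes of -0.66 and 0.08. The Id proteins, which hold back this family, fell together: Id1 fell by 3.09 and Id3 by 3.22 on the log2 scale in siTead1/4 cells, and their siControl log2 fold changes were -2.94 and -2.92. Myocd and Tcf3 were the members called down. Tcf3, an E protein that pairs with Myod1, was at 194 and 239.9 CPM at day 0 and 103 and 91.6 CPM at day 3 and was under the fold limit without day 0 replicate 2 (-0.99), and Myocd was low throughout (4.04 and 1.09 CPM at day 0 and 0 and 0.046 CPM at day 3).

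The cofactors of Tead gave 3 rises among 9 tested genes, namely Tead4, Wwtr1 and Vgll3. Wwtr1 stood at 81.7 and 86.4 CPM at day 0 and 397 and 402 CPM at day 3, with the replicates close together on each day. The rise was 2.25 ± 0.18 on the log2 scale, against 1.26 ± 0.17 with siControl, where it began at 159.7 and 178 CPM and ended at 403 and 406 CPM. The day 0 level was lower after silencing (log2 difference -1.01 ± 0.17, adjusted p = 0.0399, a call made for 0.438% of all genes), the day 3 levels were alike in value, and the difference of the change had an adjusted p of 0.153. Yap1 was not called (166 and 141 CPM at day 0 and 154 and 126 CPM at day 3). Of 22 textbook Yap1 and Tead target genes, 4 rose and 0 fell in siTead1/4 cells, against 4 and 1 with siControl, and 2 rises were shared. The share that rose after silencing is near the 13.8% of all tested genes. The list median was 0.51 after silencing and -0.15 without day 3 replicate 1. Ankrd1, a stretch-responsive protein, was at 251 and 435 CPM at day 0 and 775 and 946 CPM at day 3 and rose (log2 fold change 1.33, adjusted p = 0.0207), a call that was lost without day 0 replicate 1 (adjusted p = 0.106) and without day 3 replicate 2 (0.0797). Gadd45a rose by 4.60 and Tgfb2, a growth factor, by 1.37, and the Tgfb2 value was 0.89, under the fold limit, without day 3 replicate 1. Cyr61 was at 214 and 288 CPM at day 0 and 779.9 and 116 CPM at day 3 and was not called. Its log2 fold change was 0.84 with all libraries and -1.07 without replicate 1 of day 3, and Ctgf went from 0.95 to -1.35.

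Genes of cell adhesion and fusion were called up in 10 of 23 cases and down in 1 (Nfatc2), and 9 of the 10 siControl rises were shared. The Nfatc2 fall was not called without day 3 replicate 2 (adjusted p = 0.0537), and the list had 2 falls without day 0 replicate 1 and 2 without day 3 replicate 1. Tmem8c, the fusogen myomaker, was at 3.25 and 10.8 CPM at day 0 and 363 and 622 CPM at day 3 and rose (log2 fold change 6.14 ± 0.72), against 7.96 with siControl (adjusted p of the difference = 0.452). Its partner Gm7325, known as myomixer, was at 0.171 and 0.194 CPM at day 0 and 49.2 and 85.3 CPM at day 3 and rose by 8.52, against 9.23. Cav3, the muscle caveolin, had 2 and 3 counts in the day 0 libraries and was at 22.1 and 46.9 CPM at day 3, a rise that passed the test (adjusted p = 1.54e-05). The siControl libraries of day 3 held Cav3 at 106 and 104 CPM.

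Most genes of the contractile apparatus rose in siTead1/4 cells, and for most the fitted day 3 level was below that of siControl. Of 26 thick filament genes, 22 rose and none fell, with a median log2 fold change of 6.79, whereas all 26 rose with siControl (median 7.83). The median over all tested genes was 0.01 with siTead1/4 and -0.01 with siControl. Thin filament genes rose in 15 of 20 cases and fell in 1 (Tpm3), with a median of 5.74 against 7.64. Z-disc and costamere genes, which anchor the filaments, rose in 26 of 32 cases, with medians of 3.14 and 4.22. The difference of the change lay below 0 for 25, 19 and 26 genes of these lists, and none of them passed the edgeR threshold. At day 3 siTead1/4 cells were below siControl cells for 24 thick filament, 19 thin filament and 30 Z-disc genes, and 7, 2 and 5 of them were called, where 1.27% of all tested genes were called in either direction.

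Upstream sequences of 5 genes are printed because Tead and Myod family motifs can be read in them directly. They are the 250 bases before the annotated RefSeq start, on the gene's strand and in GRCm38.p6, with capitals marking M-CAT (CATTCC, or GGAATG on the other strand) and E-box (CANNTG, which reads as itself on the other strand) matches. Of the 32851 promoters of this length in the table, 12.6% hold an M-CAT and 66.2% an E-box. The 5 genes were chosen after their values were seen.
Acta1, chr8:123894776-123895025, minus strand: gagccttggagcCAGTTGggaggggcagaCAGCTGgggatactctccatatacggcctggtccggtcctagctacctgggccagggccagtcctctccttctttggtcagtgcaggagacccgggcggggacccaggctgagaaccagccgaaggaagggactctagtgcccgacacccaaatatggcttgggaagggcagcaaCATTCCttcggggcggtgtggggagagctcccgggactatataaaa
Mybph, chr1:134193198-134193447, plus strand: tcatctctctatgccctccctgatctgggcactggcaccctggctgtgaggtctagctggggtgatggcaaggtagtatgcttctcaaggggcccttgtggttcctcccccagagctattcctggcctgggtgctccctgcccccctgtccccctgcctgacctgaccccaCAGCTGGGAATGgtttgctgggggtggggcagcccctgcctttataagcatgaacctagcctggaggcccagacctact
Myog, chr1:134289754-134290003, plus strand: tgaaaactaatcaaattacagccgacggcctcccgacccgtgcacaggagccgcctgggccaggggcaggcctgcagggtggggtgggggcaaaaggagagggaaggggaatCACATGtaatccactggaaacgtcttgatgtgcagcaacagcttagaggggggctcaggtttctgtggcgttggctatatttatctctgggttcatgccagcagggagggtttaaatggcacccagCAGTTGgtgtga
Myh3, chr11:67078050-67078299, plus strand: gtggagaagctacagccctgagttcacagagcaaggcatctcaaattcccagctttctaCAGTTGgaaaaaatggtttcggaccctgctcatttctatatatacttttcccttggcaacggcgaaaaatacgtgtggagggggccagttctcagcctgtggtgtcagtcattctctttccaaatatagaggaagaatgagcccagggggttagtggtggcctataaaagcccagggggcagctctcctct
Tspan13, chr12:36042479-36042728, minus strand: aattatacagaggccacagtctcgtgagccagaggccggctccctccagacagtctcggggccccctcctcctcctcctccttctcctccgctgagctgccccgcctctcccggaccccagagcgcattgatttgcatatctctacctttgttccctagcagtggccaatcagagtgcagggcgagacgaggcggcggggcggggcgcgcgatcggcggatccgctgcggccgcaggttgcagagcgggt
Acta1 and Mybph have 1 M-CAT each, 46 and 73 bases before the start, together with 2 and 1 E-boxes. Myog has 2 E-boxes and Myh3 has 1, and neither has an M-CAT in this window. Tspan13, a tetraspanin of the membrane whose siControl rise had no call after silencing, matches neither motif. The first 4 genes rose in siTead1/4 cells, so that genes with and without an M-CAT in this window were among those induced. A match is a run of letters and is not evidence of binding.

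Acta1, skeletal actin, was at 17.8 and 21.7 CPM at day 0 and 2445 and 3106 CPM at day 3 and rose (log2 fold change 7.13 ± 0.71, adjusted p = 8.8e-05), next to 7.76 with siControl. Mybph, a myosin-binding protein, was at 1.13 and 0.738 CPM at day 0 and 289 and 486 CPM at day 3 and rose by 8.67 ± 0.67. With siControl it reached 1688 and 1604 CPM from 4.8 and 1.6 CPM, so the siControl libraries were higher on both days, and the siControl fold change was 9.03. Myh3, the embryonic myosin heavy chain, was at 3.96 and 2.83 CPM at day 0 and 1343 and 1118 CPM at day 3, with all day 3 libraries far above day 0. It rose by 8.49 ± 0.60, against 9.20 ± 0.61 with siControl, where day 3 stood at 5302 and 8306 CPM. The level at day 3 was lower than with siControl (log2 difference -2.47 ± 0.45, adjusted p = 0.0336), and the difference of the change was -0.71 (adjusted p = 0.738). Myh7, the slow myosin, was at 0.318 and 0.155 CPM at day 0 and 26.6 and 26.1 CPM at day 3 against 1.58 and 0.335 at day 0 and 339 and 527 at day 3 with siControl. It rose in both, by 6.70 and 8.90, and was lower at day 3 after silencing (-4.04, adjusted p = 0.0135). Myh8, the perinatal myosin, rose to 10.2 and 22.7 CPM against 293 and 686 CPM with siControl. Myh4, a fast myosin, rose by 8.36 in siTead1/4 cells and by 6.20 in siControl cells.

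Myl2, the slow regulatory light chain, is the clearest member without a call. It had no more than 10 counts in any siTead1/4 library (0 and 0.0388 CPM at day 0 and 0.0808 and 0.23 CPM at day 3) and was not called (adjusted p = 0.113). Both siControl libraries of day 0 held 0 counts and those of day 3 18.4 and 16.6 CPM, so siTead1/4 and siControl did not overlap at day 3 (adjusted p = 0.0093). With day 0 at 0 to 1 count the difference of the change rests on zeros, and its adjusted p was 0.398. Myl3, Mylk2 and Igfn1 were the other thick filament genes called with siControl alone. Myl1, the fast light chain, rose by contrast to 723 and 1433 CPM (log2 fold change 6.74 ± 0.67).

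Troponins regulate the thin filament by calcium. Fast skeletal Tnnt3 was at 2.86 and 3.92 CPM at day 0 and 548 and 1028 CPM at day 3 and rose by 7.87 ± 0.70, next to 8.28 with siControl. Slow skeletal Tnni1 was at 9.13 and 17.2 CPM at day 0 and 586 and 1209.8 CPM at day 3 and rose by 6.09 ± 0.55, next to 8.00 (adjusted p of the difference = 0.276). Tnnt2, the cardiac isoform that embryonic muscle also makes, was at 154 and 154 CPM at day 0 and 645 and 885 CPM at day 3 and rose by 2.31 ± 0.27. With siControl Tnnt2 ended at 1975 and 2016 CPM, above both siTead1/4 libraries (log2 difference at day 3 -1.38, adjusted p = 0.0339). Kbtbd10, a Kelch protein of the sarcomere, was at 7.9 and 18.2 CPM at day 0 and 221 and 300.0 CPM at day 3 against 3.19 and 2.01 at day 0 and 695 and 748 at day 3 with siControl. It rose by 4.33 and 8.13, and its difference of -3.80 ± 0.54 shared the smallest adjusted p of all genes (0.0801), which was not past the threshold. Among Z-disc genes, Ankrd2, a mechanical stress sensor, had 1 and 0 counts at day 0 and was at 4.12 and 8.61 CPM at day 3, against 86.6 and 62.5 CPM with siControl. The rise passed the test (adjusted p = 4.65e-05), and the day 3 level was below siControl (log2 difference -3.55, adjusted p = 0.0093). Dmd, dystrophin, had 2 and 0 counts at day 0 and rose to 6.28 and 11.8 CPM, next to 11.5 and 18 CPM with siControl. Csrp3, a Z-disc LIM protein, rose by 6.69 and Ttn, the giant spring titin, by 5.15, next to 7.82 and 6.45. Des, Hspb8, Cryab and Pdlim5 were called with siControl and not after silencing, where their log2 fold changes were 1.17, 0.20, 0.67 and 0.81. Pdlim5 had an adjusted p of 0.00778 there and missed only the fold limit, and the difference of the change was not past the threshold for any of the 4 (adjusted p from 0.174 to 0.766).

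Genes of excitation-contraction coupling, which turn a membrane signal into calcium release, kept all of their siControl calls. In siTead1/4 cells 25 of 27 rose, and these include all 25 siControl rises (25 shared), with medians of 4.62 and 4.93. Scn4a, the muscle sodium channel, was at 0.122 and 0.0388 CPM at day 0 and 61 and 104 CPM at day 3 and had the largest fitted rise among called genes with over 3 counts in a day 0 library (log2 fold change 9.81 ± 0.50, adjusted p = 4.44e-06). The siControl change was 9.58 ± 0.46. Ryr1, the calcium release channel, was at 6.17 and 5.86 CPM at day 0 and 302 and 432 CPM at day 3 and rose by 5.93 ± 0.42 (6.88 with siControl). Atp2a1, the calcium pump, rose by 6.53 and Casq1, the calcium buffer, by 6.23. Casq1 ended at 30.6 and 23.3 CPM, below the 127 and 165 CPM of siControl (adjusted p at day 3 = 0.0327). Neuromuscular junction genes followed the same course, with 14 of 16 called up and none down, against 15 with siControl (medians 2.89 and 2.88). Chrng, the foetal acetylcholine receptor subunit, was at 1.88 and 2.83 CPM at day 0 and 253 and 499 CPM at day 3 and rose by 7.33 ± 0.63. Chrna1, the subunit present before innervation, rose by 2.41 next to 2.51. Musk, the receptor kinase of the junction, was at 59.3 and 36.9 CPM at day 0 and 103 and 93.9 CPM at day 3 and rose by 1.03 (adjusted p = 0.0242). The Musk call was lost without day 0 replicate 2, day 3 replicate 1 or day 3 replicate 2, with adjusted p of 0.136, 0.0709 and 0.0537.

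Genes of energy metabolism were divided. Of 29 genes for creatine kinase, adenylate and glycolytic enzymes of muscle, 14 rose and 1 (Pdk4) fell in siTead1/4 cells, against 19 and 3 with siControl, and the median was 1.07 against 2.43. The Pdk4 fall was not called without day 0 replicate 1 (adjusted p = 0.0503) or day 3 replicate 2 (0.0564), and the list had 3 falls without day 3 replicate 1 and 2 without day 0 replicate 1. Ckm, muscle creatine kinase, was at 0.612 and 0.66 CPM at day 0 and 133 and 247 CPM at day 3 and rose by 8.22 ± 0.86, next to 8.44. Myoglobin (Mb) rose by 7.68 next to 8.55. Ak1, Eno3, Phkg1, Slc2a4 and Cox7a1 were called up with siControl alone. For Ak1, adenylate kinase, the siTead1/4 libraries were at 115 and 189.6 at day 0 and 145 and 165 at day 3, with overlap between the days, and the siControl libraries at 104 and 118 at day 0 and 275 and 299 at day 3, without overlap. Nuclear genes of the respiratory chain had few calls in either condition. Of 49 genes, 0 rose and 1 fell (Cycs, cytochrome c) after silencing, and Cycs was not called without day 0 replicate 2 (log2 fold change -0.68) or day 3 replicate 1 (-0.82). Their median log2 fold change was -0.42 after silencing and 0.09 with siControl, and the difference lay below 0 for 49 of 49 genes. At an unadjusted p under 0.05 there were 5 of them, a share near the 11.4% of all tested genes. Day 0 replicate 2 was higher than replicate 1 for this list by a median of 0.64, and without it the siTead1/4 median was -0.10, whereas without replicate 1 it was -0.68 and 5 genes were called down.

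Cholesterol synthesis genes had 0 calls of 23 in siTead1/4 cells and 9 rises with siControl (medians 0.48 and 1.17). Cyp51 stood at 83.8 and 307 CPM at day 0 and 426 and 166 CPM at day 3, and the days overlapped. For the list as a whole, day 0 replicate 2 was above replicate 1 by a median of 1.57 on the log2 scale. At day 3 the median of replicate 2 minus replicate 1 was -1.06, and 14 of the 23 genes were over 2-fold higher in replicate 1. The list median was -0.14 without day 3 replicate 1 and 0.71 without day 3 replicate 2. Without day 0 replicate 2, 10 genes of the list were called up and the median was 1.72, and without day 0 replicate 1 there were 0 calls and a median of -0.07.

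Genes of DNA replication and mitosis fell with or without Tead1/4 silencing. All 45 DNA replication genes tested fell in siTead1/4 cells and all 45 fell with siControl, with medians of -2.78 and -2.79. All 48 mitosis genes fell in both conditions as well (medians -3.51 and -3.22), and no gene of either list had an unadjusted p under 0.05 for the difference. At day 3, siTead1/4 cells were below siControl cells for 34 DNA replication and 46 mitosis genes, and none was called. The median log2 differences at day 3 were -0.35 and -0.52, and 7514 of all 15303 tested genes were below siControl. Without day 3 replicate 2, 30 of the 48 mitosis genes were called down, with a median of -3.39. Mcm5, a subunit of the replicative helicase, was at 259.7 and 278 CPM at day 0 and 12.4 and 3.8 CPM at day 3. Its day 3 libraries were both far below its day 0 libraries, and it fell by 5.06 on the log2 scale (SE 0.83, adjusted p = 0.00134), next to -4.11 with siControl. Mcm10, which loads the polymerase, fell the most in this list (61.9 and 52.7 at day 0 and 1.7 and 1.11 at day 3). Cdk1, the mitotic kinase, was at 215 and 268 CPM at day 0 and 21.9 and 17.4 CPM at day 3 and fell by 3.62, next to -3.38. Ccnb1, its cyclin, fell by 3.44 and Birc5, survivin, fell by 4.23. Mki67, the usual proliferation marker, was at 532 and 205 CPM at day 0 and 44.3 and 17.6 CPM at day 3, and its fall, -3.58 on the log2 scale, with adjusted p = 0.0189, lost its call without day 0 replicate 1 (0.0796) or day 3 replicate 2 (0.11).

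Regulators of G1, the phase in which cells commit to divide, fell more often than they rose. Of 23 genes for D and E cyclins, E2F factors and pocket proteins, 11 fell and 2 (Rb1 and Ccnd3) rose, and siControl had 11 and 3. Among all tested genes, 10.8% fell and 13.8% rose in siTead1/4 cells. The Ccnd3 rise was not called without day 0 replicate 1 (log2 fold change 0.61) or day 3 replicate 2 (0.70). Ccnd1, cyclin D1, was at 299 and 295 CPM at day 0 and 49.4 and 30.1 CPM at day 3, against 421 and 515 at day 0 and 17.5 and 14 at day 3 with siControl. It fell by 2.90 after silencing (SE 0.27, adjusted p = 6.35e-05), and the siControl log2 fold change was -4.90. The difference of 2.00 ± 0.36 had an adjusted p of 0.0946, while the day 3 level was higher after silencing (log2 difference 1.34 ± 0.26, adjusted p = 0.0405). Cdkn1a, the Cdk inhibitor p21, was at 227 and 298 CPM at day 0 and 751 and 1238 CPM at day 3 and rose by 1.92 ± 0.31. With siControl it went from 196 and 133 to 1795 and 1744 CPM, a rise of 3.43 ± 0.33, and the difference was -1.51 ± 0.42 (adjusted p = 0.202). Of 5 Cdk inhibitors tested, Cdkn1a and Cdkn1c rose and Cdkn2c fell, in both conditions. The Cdkn1c rise (2.19, adjusted p = 0.027) was lost on leaving out any 1 siTead1/4 library, with adjusted p from 0.0513 to 0.121. Ccne1, cyclin E1, fell by 4.27 next to -3.21. Hmga2, a chromatin protein of growing myoblasts, was at 132 and 110.3 CPM at day 0 and 41.6 and 84.4 CPM at day 3 against 422 and 476 at day 0 and 39.1 and 31.7 at day 3 with siControl. It fell with siControl (-3.67) and was not called after silencing (-0.94, adjusted p of the difference = 0.0801). It was chosen after its values were seen, and it was already lower at day 0 after silencing (log2 difference -1.89 ± 0.32, adjusted p = 0.0369).

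Notch signalling, which keeps muscle progenitors undifferentiated, had 7 rises and 3 falls among 19 tested genes, against 5 and 3 with siControl. The shares over all tested genes were 13.8% up and 10.8% down in siTead1/4 cells. Dll1, a Notch ligand, was at 1.27 and 2.02 CPM at day 0 and 50.8 and 17.8 CPM at day 3 and rose by 4.40 ± 0.55, next to 4.84. The receptor Notch3 rose by 1.20 next to 1.84, and Notch1 was not called (-0.05). Among the target genes, Hey1 was at 18.6 and 26.9 CPM at day 0 and 4.28 and 6.31 CPM at day 3 and fell (adjusted p = 0.000543). With siControl it stood at 10.5 and 7.6 at day 0 and 9.87 and 9.9 at day 3 and was not called, and the difference was -2.23 ± 0.40 (adjusted p = 0.0946). Hey2, also a target, had 5 and 3 counts at day 0 and 5 and 40 at day 3 in siTead1/4 cells. It was not called there (2.13, adjusted p = 0.0564). With siControl, Hey2 went from 11 and 15 counts to 2 and 2 and was called down (-2.67). The Hey2 difference was 4.80 ± 1.19 (adjusted p = 0.154). Heyl, a related target, was at 1.88 and 4.04 CPM at day 0 and 36.2 and 12.1 CPM at day 3 and rose by 3.05, next to 5.65. Lfng, which modifies Notch receptors, fell by 3.39 next to -1.59. The ligand Jag1 and the DNA-binding partner Rbpj rose in siTead1/4 cells (1.36 and 1.27) and were not called with siControl (-0.20 and -0.39), with adjusted p of the differences of 0.354 and 0.156. Without day 3 replicate 2 neither rise was called (log2 fold changes 0.49 and 0.62), and Jag1 was not called without day 0 replicate 1 (adjusted p = 0.0509) or replicate 2 (0.165) either.

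The other signalling lists stand beside the 13.8% of all tested genes called up and the 10.8% called down in siTead1/4 cells. Wnt genes had 14 rises and 5 falls of 37, and 12 of the 13 siControl rises and all 4 siControl falls were shared. The share of Wnt genes that fell is near that of all tested genes. Without day 0 replicate 2, 9 Wnt genes were called up. Axin2, a feedback gene of the pathway, was at 0.636 and 0.388 CPM at day 0 and 7.01 and 4.97 CPM at day 3 and rose by 3.51 ± 0.39, next to 2.88. Wif1, a secreted inhibitor, had 0 counts in both day 0 libraries and 1.35 and 1.4 CPM at day 3, at least 14.5-fold higher against a floor of 3 counts per library. Lgr5 was called up, but at 6.47 and 0.046 CPM in the 2 day 3 libraries its value came mostly from replicate 1, and the call held only without replicate 2 of day 3, with adjusted p of 0.438 without day 3 replicate 1, 0.144 without day 0 replicate 1 and 0.156 without day 0 replicate 2. The Tgfb and Bmp list had 12 rises and 10 falls of 40, with 5 falls called without day 3 replicate 2. Bmp4 was at 3.84 and 2.83 CPM at day 0 and 108 and 23.4 CPM at day 3 and rose by 4.28 ± 0.68, and the inhibitor Fst, follistatin, rose by 3.78 next to 6.04. The falls include the targets Id1, Id2, Id3 and Id4, with Id2 not called without day 3 replicate 2 (adjusted p = 0.0666). With siControl the Tgfb and Bmp list had 9 rises and 10 falls. The Igf list had 7 rises of 13 and no fall with all libraries, against 6 and 0 with siControl. It had 4 rises without day 0 replicate 2, 4 without day 3 replicate 1, and 2 falls without day 0 replicate 1. Igf2, the growth factor of differentiating myoblasts, was at 3.21 and 3.69 CPM at day 0 and 84.3 and 212 CPM at day 3 and rose by 5.43 ± 0.60, next to 5.98. Igf1 was at 0.759 and 0.349 CPM at day 0 and 110.5 and 4.03 CPM at day 3. Its day 3 replicates were far apart, and the rise (6.62, adjusted p = 0.00717) was not called without day 3 replicate 1 (2.83, adjusted p = 0.0508) or day 0 replicate 2 (adjusted p = 0.0593).

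Extracellular matrix genes were called up in 15 of 48 cases and down in 5, against 17 and 7 with siControl. In siTead1/4 cells 13.8% of all tested genes were called up and 10.8% down, and the share of matrix genes that fell is near the latter. Postn, periostin, was at 20.8 and 13.1 CPM at day 0 and 2334 and 852 CPM at day 3 and rose by 6.55 ± 0.91, and it reached 210.1 and 321 CPM with siControl. Fn1, fibronectin, was at 3191 and 1762 CPM at day 0 and 16495 and 9836 CPM at day 3 and rose by 2.41 ± 0.38, next to 0.74 with siControl (adjusted p of the difference = 0.242). Replicate 1 of day 3 was the higher one for this list, and 25 genes were called up and 2 down without replicate 2, and 10 up and 7 down without replicate 1. Fibroblast markers summed to 386 and 699 CPM at day 0 and 789.7 and 350.4 CPM at day 3 over 10 genes, with the defining gene Tcf21 at 0, and moved with the matrix genes between the day 3 replicates. Of the 9 fibroblast markers tested, 3 rose and 1 fell, against 5 and 1 with siControl, and their part in the matrix result was not tested.

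Marker sums of other lineages ranged widely. Adipocyte markers summed to at most 0.66 CPM in any siTead1/4 library, with Plin1, Cidec and Cfd at 0 counts, endothelial markers to at most 4.77 CPM and macrophage markers to at most 9.98 CPM. Of the 4 endothelial markers tested 3 rose and 1 fell, of 5 macrophage markers 1 rose (Itgam), and the 1 adipocyte marker tested was not called. These endothelial calls and the macrophage rise were made with siControl too. The endothelial fall was lost in each of the 4 fits that left out 1 siTead1/4 library, and 2 endothelial markers were called up without day 0 replicate 2 or without day 3 replicate 1. Osteoblast markers summed to between 58.9 and 83.8 CPM in siTead1/4 cells, with 1 of 6 called down (Sp7). Neural markers summed to 298 and 555 CPM at day 0 and 161 and 136 CPM at day 3, with 3 of 6 called down (Tubb3, Mbp and Stmn2), and these 3 were called down with siControl too. Stmn2 was under the fold limit without day 0 replicate 2 (-0.86) or day 3 replicate 2 (-0.97), and Itgam was not called without the same libraries (adjusted p = 0.0594 and 0.0771). Satellite cell and myoblast markers rose in 5 of 11 cases and fell in none, against 4 and 1 with siControl, and 4 rises were shared. Over all tested genes, 13.8% were called up and 10.8% down in siTead1/4 cells. The 5 rises after silencing were Spry1, Heyl, Cxcr4, Cdh15 and Vcam1. Spry1, an inhibitor of receptor kinase signalling, was at 0.196 and 1.79 CPM at day 0 and 58.1 and 75.9 CPM at day 3 and rose by 6.19 ± 0.70. Without day 3 replicate 1 the rises of Cdh15, Cxcr4 and Vcam1 were not called (adjusted p = 0.0553, 0.137 and 0.0532), without day 0 replicate 1 Cdh15 and Cxcr4 were under the fold limit (Cdh15 at 0.75), and Cdh15 was not called without day 3 replicate 2 (adjusted p = 0.0837). Pax7, which marks satellite cells, was not called (31.2 and 20.2 CPM at day 0 and 68.5 and 24.1 CPM at day 3), and Calcr, a marker of quiescence, had 0 counts. Adipogenic genes rose in 6 and fell in 1 of 21 cases, against 5 and 1 with siControl, with 3 rises and the fall shared. The fatty acid receptor Cd36 was at 0.171 and 0.311 CPM at day 0 and 23.3 and 35.9 CPM at day 3 (adjusted p = 5.98e-06). Pparg, the master factor of adipocytes, was called down (-2.76). Without day 0 replicate 1, 1 adipogenic gene was called up, and without day 3 replicate 1 there were 3. Interferon response genes rose in 6 and fell in 1 of 24 cases, and 9 were called up without day 3 replicate 1, 3 without day 3 replicate 2, 2 without day 0 replicate 1 and 2 without day 0 replicate 2. The fall was lost without day 0 replicate 1 or day 3 replicate 1. With siControl, interferon response genes gave 5 rises and 1 fall, and 3 rises and the fall were shared. Immediate early genes rose in 1 and fell in 3 of 22 cases, against 3 and 4 with siControl, and the share that fell is near the 10.8% of all genes. They rose in 4 cases without day 3 replicate 2, in 3 without day 0 replicate 2 and in 2 without day 3 replicate 1, and fell in 6 without day 3 replicate 1. Fosl1, an AP-1 subunit of growing myoblasts, was at 17.4 and 23.8 CPM at day 0 and 1.99 and 1.75 CPM at day 3 and fell by 3.46 on the log2 scale, next to -5.16 with siControl.

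**Figure D5:**
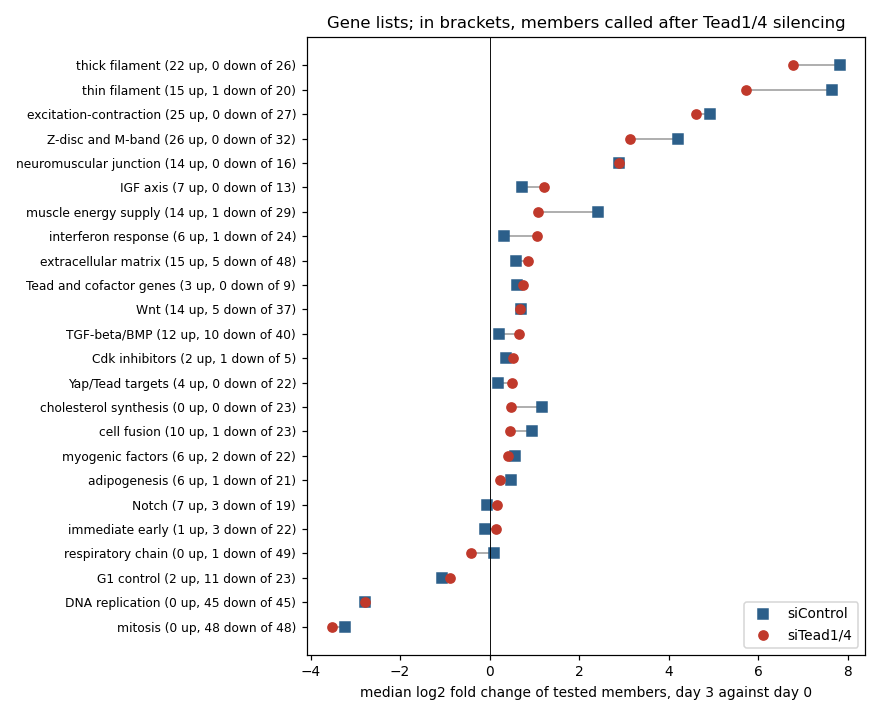
Median log2 fold change of day 3 over day 0 (x axis) for the tested members of 24 gene lists (y axis), siControl as blue squares and siTead1/4 as red circles, with the number of members called after silencing in brackets. Thick and thin filament genes lie furthest right in both conditions and DNA replication and mitosis genes furthest left.

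Over all genes, the largest rises in siTead1/4 cells with over 3 counts in a day 0 library were Scn4a, Cilp, Ctxn3, Mybph and Gm7325, and all 5 were called with siControl too. Cilp, a cartilage matrix protein, was at 0.759 and 0.272 CPM at day 0 and 645 and 57 CPM at day 3 and rose by 9.32 ± 1.32, with the day 3 replicates far apart. The largest falls were Nefl, Prl2c3, Prl2c2, Selp and Ptprn, again all shared. Nefl, the light neurofilament, was at 20 and 31.6 CPM at day 0 and 0.135 and 0.023 CPM at day 3 and fell by 8.37 on the log2 scale (SE 0.50, adjusted p = 9.23e-06). With siControl it fell from 119.9 and 111 to 1.06 and 1.65 CPM, and it was lower after silencing at day 0 (adjusted p = 0.0275) and at day 3 (adjusted p = 0.0135). Prl2c2 and Prl2c3, proliferin genes of near-identical sequence whose reads may be split between copies, fell by 7.57 and 8.36.

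Calls made in siTead1/4 cells alone numbered 555 rises and 393 falls. Most of these genes had the same sign with siControl, over 1 on the log2 scale in 106 rises and 78 falls and between 0 and 1 in 382 and 280. The largest rises among them were Car6, Odz4, Slc6a2, Vldlr and Sh3tc2. Vldlr, a lipoprotein receptor, was at 3.74 and 0.544 CPM at day 0 and 46 and 118 CPM at day 3 against 7.54 and 2.78 at day 0 and 11.2 and 14.4 at day 3 with siControl and rose by 5.20 ± 0.88. Both day 3 libraries were above every other library. Car6, a carbonic anhydrase, was at 0.392 and 0.621 CPM at day 0 and 0.485 and 66.3 CPM at day 3, so its rise (6.07) came from day 3 replicate 2, the library with high Hspa5, and the call held only without day 3 replicate 1 (adjusted p without each of the other libraries 0.0955 to 0.992). Slc6a2 was at 6.2 and 0.0691 CPM at day 3 and kept its call only without replicate 2 (adjusted p without each of the other libraries 0.107 to 0.993). Sh3tc2 was not called without day 0 replicate 2 (adjusted p = 0.0533) or day 3 replicate 2 (0.0566). The largest falls were Ccdc68, Ikzf1, Msc, Mxd3 and Tbxas1, with Mxd3 not called without day 3 replicate 2 (adjusted p = 0.0748). Ccdc68 was at 2.89 and 1.75 CPM at day 0 and 0.135 and 0.0921 CPM at day 3 and fell by 4.34, while its siControl libraries were at 0.0596 and 0.0745 at day 0 and 0.0722 and 0.0417 at day 3, so the conditions differed in value already at day 0. Msc, the bHLH repressor musculin, was at 0.954 and 2.99 CPM at day 0 and 0.189 and 0.0691 CPM at day 3 and fell by 3.92, next to -1.43 with siControl (adjusted p of the difference = 0.333).

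Some siControl changes were small or not seen after silencing. Chosen after their values were seen, the largest siControl rises without a call were Myl2, Ccl11 and Tspan13 among genes that reached 5 CPM. Tspan13 was at 0.636 and 1.44 CPM at day 0 and 2.02 and 2.44 CPM at day 3 against 0.238 and 0.484 at day 0 and 20.7 and 29.2 at day 3 with siControl. The siTead1/4 libraries stayed below 3 CPM on both days, and the difference of the change was -4.89 ± 0.83 (adjusted p = 0.0835). Ccl11, the chemokine eotaxin, was at 0 and 0.155 at day 0 and 0.296 and 0.253 at day 3 in siTead1/4 cells and 0.0298 and 0.0559 at day 0 and 5.44 and 6.04 at day 3 with siControl. Nov, a matricellular protein, was at 0.465 and 0.582 at day 0 and 0.889 and 0.483 at day 3 after silencing and 0.507 and 1.01 at day 0 and 17.4 and 10.5 at day 3 with siControl. Grhl3, an epithelial transcription factor, was at 3.82 and 7.15 at day 0 and 2.8 and 8.08 at day 3 after silencing and 0.387 and 0.578 at day 0 and 5.13 and 14.8 at day 3 with siControl, so its siTead1/4 libraries were above those of siControl at day 0 and overlapped between the days.

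Finally, 8 of the 15303 tested genes were called in opposite directions. Gpr56, an adhesion receptor of myoblasts, was at 28.9 and 29.3 CPM at day 0 and 14.9 and 9.99 CPM at day 3 and fell by 1.23 (SE 0.29), whereas with siControl it stood at 26.3 and 27.5 at day 0 and 64.6 and 50.3 at day 3 and rose by 1.09. The groups did not overlap in either condition, and the difference of -2.32 ± 0.41 had an adjusted p of 0.0946. The Gpr56 fall was not called without day 3 replicate 2 (adjusted p = 0.0677). Cyp26b1, which breaks down retinoic acid, was at 3.84 and 4.47 CPM at day 0 and 1.48 and 1.08 CPM at day 3 against 2.21 and 3.13 at day 0 and 4.65 and 12.7 at day 3, and its fall kept its call only without day 0 replicate 1, with adjusted p up to 0.108 without each of the others. Man2a1, a mannosidase of the Golgi, was at 60.8 and 54.9 CPM at day 0 and 166 and 110.4 CPM at day 3 against 205 and 275 at day 0 and 107 and 122 at day 3, so that its day 0 level was lower after silencing (adjusted p = 0.0199), and without day 3 replicate 1 its rise was under the fold limit (0.97). Ero1l, an oxidase of the endoplasmic reticulum, was at 55.4 and 49.5 CPM at day 0 and 92.8 and 271 CPM at day 3 against 147 and 88.2 at day 0 and 43.8 and 46.2 at day 3. Ero1l belongs to the folding genes, and its call was lost without day 3 replicate 2 (adjusted p = 0.0552) or day 0 replicate 2 (0.052). The remaining 4, Ly6i, Prkg2, 9330159F19Rik and D430036J16Rik, were called with adjusted p of 0.0326, 0.0396, 0.0148 and 0.0157 in siTead1/4 cells. Without day 3 replicate 2 all 4 lost their call, with adjusted p of 0.0745, 0.43, 0.0803 and 0.133. Without day 0 replicate 2, Ly6i, Prkg2 and 9330159F19Rik lost theirs (0.223, 0.154 and 0.118), without day 0 replicate 1 Prkg2 and D430036J16Rik did (0.084 and 0.101), and without day 3 replicate 1 Ly6i did (0.155).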

How the data were processed

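Polyadenylated RNA was sequenced from unstranded TruSeq libraries, and reads of overlapping or antisense genes cannot be told apart. The values are raw read counts per gene that the authors deposited, and the submitters' processing notes name CASAVA 1.8.2, TopHat2 2.0.10, Bowtie2 2.1.0, HTSeq 0.6.1, DESeq2 1.8.1 and the mm9 build. A further 36 columns of libraries not analysed here were left out. Counts of the 12 C2C12 libraries (6 groups, days 0, 3 and 6) were fitted with edgeR 4.0.16 in R 4.3.3 with limma 3.58.1 (filterByExpr, TMM, quasi-likelihood test, Benjamini-Hochberg adjustment over all 15303 tested genes). The difference of the change was tested in the same fit. The steps were tested on simulated data. CPM are counts per TMM library size. Alternatives were DESeq2 1.42.0, other normalisation, filters, libraries in the fit and call rules, the replicate number as a block, and each library left out in turn.

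The members and lists were chosen with earlier results of these data known. Genes were named mainly by these rules: a fixed panel of regulators, targets and structural genes, the 5 largest rises and falls with over 3 counts in a library of the lower group, the 2 largest changes of each list, the 5 largest rises and falls called in siTead1/4 cells alone, and genes called in opposite directions. Smyd1, Mef2a, Kbtbd10, Myh4, Fn1, Axin2, Fst, Jag1, Rbpj, Pparg and other genes met none of these rules and were named with values known. The list of protein folding and stress genes, the 5 promoters and the siControl changes without a call were chosen after values were seen. Promoter sequences came from RefSeq GRCm38.p6 and not from the build of the counts. They matched 10072 of the 15303 tested symbols, so shares of motifs were not compared between groups of genes.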

Additional observations from a re-analysis of the deposited data

Results flagged for a closer look

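Of the 15303 tested genes, 8 were called in opposite directions in the 2 conditions, with no overlap between the days in either. They were selected by these calls, which favour days without overlap, so the lack of overlap is not separate support. The difference of the change, siTead1/4 minus siControl on the log2 scale, was -3.46 for Ly6i, -3.39 for Cyp26b1, -2.60 for 9330159F19Rik and -2.32 for Gpr56, which fell after silencing and rose with siControl. It was 4.01 for D430036J16Rik, 3.18 for Ero1l, 2.40 for Prkg2 and 2.32 for Man2a1, which rose after silencing and fell with siControl. None passed the edgeR threshold (adjusted p from 0.0801 to 0.13), and 7 of the 8 passed that of DESeq2. Every one of the 8 lost its call in siTead1/4 cells when 1 library was left out, by its adjusted p or by the fold limit.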

How the results depend on the processing

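The counts of rises and falls in siTead1/4 cells stayed within 1.5 times under each alternative run, apart from the falls without a fold limit (2494 in place of 1653). With only the libraries of a comparison in its fit, siTead1/4 cells had 1448 rises and 1180 falls and siControl cells 2618 and 2069. The main fit shared its spread over all 12 C2C12 libraries, and siTead1/4 replicates agreed less well than those of siControl. Calls of the difference of the change were 134 above and 194 below 0 with DESeq2, 386 and 359 with no filter on low counts and 180 and 214 when the fit took in all 24 libraries. Over fits that left out 1 library they ranged from 0 to 148 above and from 0 to 45 below 0. The shared part of the siControl changes was 65.87% of rises and 60.851% of falls with no filter and 65.939% of rises at a mean of at least 10 counts, and leaving out 1 library gave 54.139% to 69.519% of rises and 54.359% to 68.71% of falls. The cause of these moves was not tested. With the replicate number as a block (replicate block), the difference had 0 calls above and 5 below 0, and siTead1/4 cells had 2174 rises and 1699 falls. Same-numbered libraries deviated together in 6 of 15 pairs of groups (r over 0.1), with r from -0.203 to 0.525, so the numbers were not taken to pair the libraries.

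Sign changes were counted for the fixed panel only. No panel gene whose fitted change in siTead1/4 cells turned sign was called with all libraries. Notch1 was at 0.0087 with all 24 libraries. On leaving out 1 library, the log2 fold change ranged from -0.27 to 0.23 for Notch1, -0.53 to 1.70 for Vgll2, -0.39 to 0.48 for Myf6, -1.72 to 0.14 for Myf5, -1.35 to 1.81 for Ctgf, -1.07 to 1.65 for Cyr61 and -0.24 to 0.018 for Yap1, and the Tead4 difference from -0.10 to 0.87. For the fixed panel of regulators, targets and structural genes alone, over all alternatives, 578 values of the change in siTead1/4 cells kept direction and call, 15 lost the call, 10 gained it and 10 turned sign, and calls lost by other named genes and lists are given with their results. With 2 libraries a group, the median SE of a difference was 0.41, and even differences of several SE were not called with edgeR. For Hmga2 the difference was 2.72 ± 0.44, with an adjusted p of 0.0801. Fitted changes of 342 rises and 125 falls with a day at 3 counts or fewer depend on the prior count.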

Other observations

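Most called genes were protein coding, at 1989 of the 2119 rises and 1465 of the 1653 falls in siTead1/4 cells. Long intergenic RNAs made up 68 rises and 65 falls, antisense genes 34 and 31, and pseudogenes 15 and 45. The tested genes were not counted by type, so no preference for a type can be read from these numbers. Antisense genes and pseudogenes share reads with other genes in unstranded libraries, so their values are uncertain.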
